A study of Mus musculus with 8 samples.

Results

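The fibulins were followed through RNA-Seq of dental pulp from mouse first molars at postnatal day 7 (P7). The members were the 7 genes of the family by name, *Fbln1*, *Fbln2*, *Fbln5*, *Fbln7*, *Efemp1*, *Efemp2* and *Hmcn1*, and 6 of them were among the 12148 genes of the expression table. *Hmcn1*, which encodes hemicentin-1, was not analysed here. *Efemp1* and *Fbln7* were chosen by their rise in the mutant libraries of this same comparison, so their values are given as a description and carry no test. The other 4 members entered by name and were tested.

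All 8 libraries came from mice labelled C57BL/6J. The 4 Osterix-Cre libraries came from control mice with Cre recombinase driven by the Osterix promoter, whose activity covers the dental mesenchyme and its odontoblasts. The 4 *Tgfbr2cko* libraries came from Osterix-Cre:Tgfbr2f/f mice, which carry the same Cre and a floxed *Tgfbr2*, the gene for the type II TGF-beta receptor, so cells outside the Osterix lineage keep the gene. Left and right molars were combined, and the methods describe equal use of males and females. The labels do not say whether the libraries of a genotype came from separate animals, so the p-values measure only the spread between these libraries.

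Fibulins are secreted glycoproteins built from chains of calcium-binding EGF-like repeats that end in a shared fibulin domain. They lie in basement membranes, elastic fibres and proteoglycan networks, where they bridge other matrix proteins rather than forming fibres of their own. In the tooth, fibulin-7 is known as a matrix protein of odontoblasts and their precursors that supports cell adhesion.

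Levels are read counts scaled to a common library size (CPM) on the log2 scale, for which the authors added 0.5 to each count before dividing by the library's total. Between 8682872 and 13539670 reads per library fell on the genes of the table, so 1 read was worth 0.0739 to 0.115 CPM. The labels number the libraries, and these numbers are used here: controls are 49 to 52 and mutants 53 to 56. The deleted gene *Tgfbr2*, counted over all its exons, was at 7.16, 7.62, 7.64 and 7.52 log2 CPM in controls 49 to 52 and at 7.02, 7.00, 7.16 and 7.61 in mutants 53 to 56. The genotypes overlapped, with mutant 56 at the level of the controls, and the log2 difference was -0.29 (SE 0.17, exact permutation p = 0.143, limma p = 0.119). Without library 56 it was -0.42 (SE 0.15), with a limma p under 0.05 before adjustment. The pulp was dissected away from the enamel organ before extraction. Reads of the genes for enamel matrix proteins, *Ambn*, *Amelx* and *Enam*, took 0.334% to 2.21% of the control libraries, 0.356% to 2.87% of mutants 53 to 55 and 19.2% of mutant 56. The fibulin differences and the list counts are therefore also given without library 56.

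The family covered a wide range of levels. Per kilobase of exon, control pulp held *Fbln1* at 233 ± 59.8 CPM (SD, n = 4), *Efemp2* at 126 ± 12.1, *Fbln7* at 118 ± 19.9, *Fbln2* at 25.04 ± 4.51, *Fbln5* at 8.63 ± 1.86 and *Efemp1* at 1.23 ± 0.563. *Fbln1* stood above every other fibulin in each control, whereas the control ranges of *Efemp2* (115 to 140 CPM per kilobase) and *Fbln7* (100 to 136) overlapped, so the order of those neighbours is not set by these libraries. In *Tgfbr2cko* pulp, *Fbln7* was at 244 ± 96.6 CPM per kilobase, *Fbln1* at 149 ± 26.2, *Efemp2* at 128 ± 42.9, *Fbln2* at 25.1 ± 6.78, *Fbln5* at 9.14 ± 1.82 and *Efemp1* at 4.68 ± 2.69. The mutant ranges of the 3 most abundant members overlapped, from 127 to 332 for *Fbln7*, 111 to 170 for *Fbln1* and 74.9 to 166 for *Efemp2*. The exon length used is that of all annotated exons of a gene merged, so a gene that uses few of its exons in pulp is set too low on this scale.

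**Figure D1:**
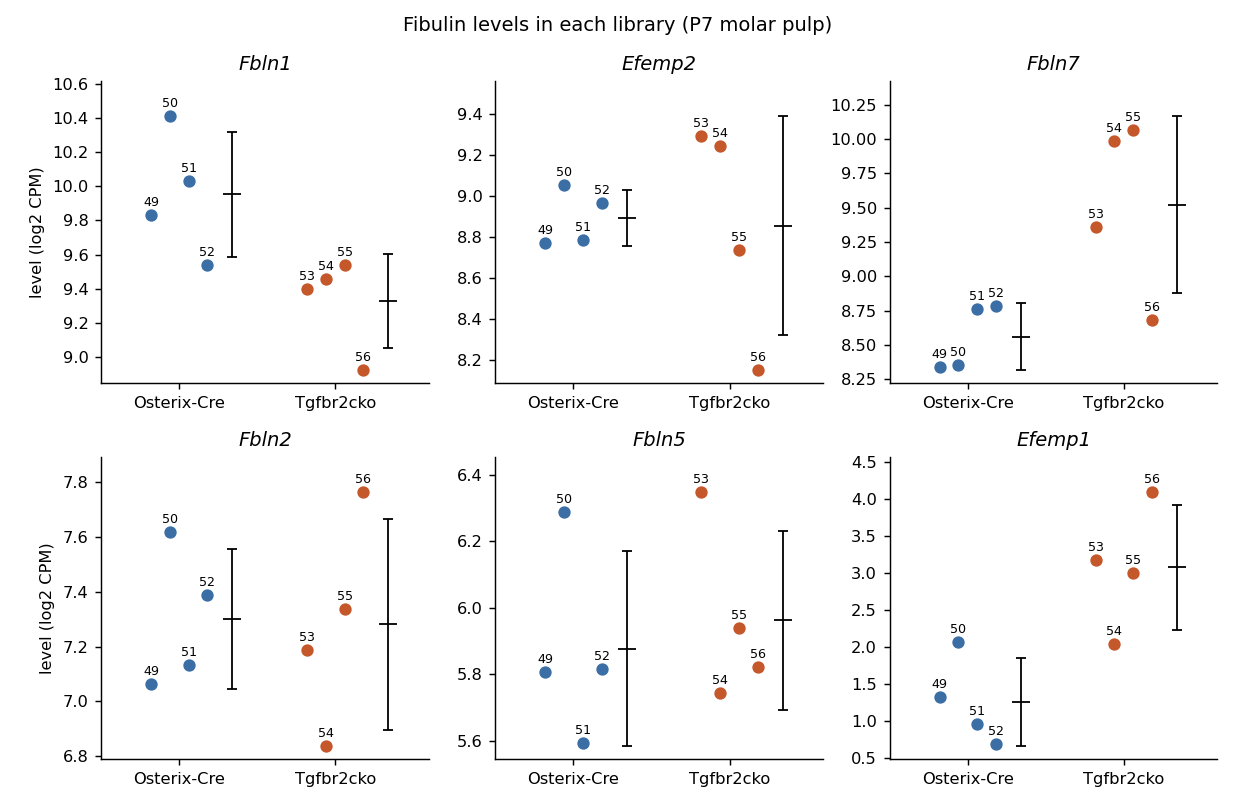
Level of each fibulin (log2 CPM, a separate axis for each gene) in the 4 Osterix-Cre and 4 *Tgfbr2cko* libraries, numbered as labelled, with the mean and SD of each genotype beside the points. *Fbln1* points of the mutants lie below those of the controls, *Efemp1* and *Fbln7* points mostly lie above them, and the other 3 genes overlap broadly.

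*Fbln1* encodes fibulin-1, which binds fibronectin and nidogen and is a cofactor of the protease ADAMTS1. The gene lies on the plus strand of chromosome 15, from 85205949 to 85286535 (GRCm38, GENCODE M21), with 4368 bases of merged exon. Its level was 9.83, 10.41, 10.03 and 9.54 log2 CPM in controls 49 to 52 and 9.40, 9.45, 9.54 and 8.92 in mutants 53 to 56. Every mutant was below every control, although the lowest control (52, with 7618 reads) and the highest mutant (55) were equal to the second decimal. Enamel genes took 0.571% of the reads of control 52 and 2.87% of mutant 55. With those reads out of the totals that pair changes order, so the genotypes then overlap. The exact permutation p of *Fbln1* below rests on that pair. The mean fell from 9.95 ± 0.37 to 9.33 ± 0.28 (SD, n = 4 each), a log2 difference of -0.62 (SE 0.21, 95% interval -1.09 to -0.16), or 1.54-fold lower.

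Of the 4 tested members, *Fbln1* alone was altered by the rule of the study, an unadjusted p under 0.05 with a change of at least 1.5-fold (limma p = 0.0119, exact permutation p = 0.0286). Of all 12148 genes, 5.77% met that rule, 2.12% higher and 3.65% lower in the mutants, and 8.38% had an unadjusted p under 0.05. The permutation test, 2-sided and exact over 70 ways of splitting the libraries, cannot give a smaller p. The genotypes did not overlap in 5.27% of all genes, with 2.13% higher and 3.14% lower in the mutants. After Benjamini-Hochberg adjustment over all genes *Fbln1* did not pass (limma adjusted p = 0.287), nor did any of the other 3 tested members, and 0.947% of genes did, 0.247% higher and 0.700% lower. The log2 difference was -0.49 without library 56 and -0.47 without control 50, where *Fbln1* was highest, both of them under 1.5-fold with an unadjusted p that stayed under 0.05. It was also under 1.5-fold, and so not altered by the rule, in 4 of 9 alternatives, at -0.56 with limma's library weights, -0.57 with libraries of the same title number averaged, -0.49 with the enamel level as a covariate and -0.55 with enamel reads taken out of the library totals.

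Beside the lower *Fbln1*, the summed level of 5 measured pericyte and smooth muscle markers of 6 listed was 405 to 539 CPM in the controls and 293 to 380 CPM in the mutants, without overlap, and *Myh11* of that list was not in the table. The 5 measured of 7 pulp and follicle fibroblast markers summed to 6955 to 8263 CPM in the controls and 7327 to 9359 CPM in the mutants, which overlapped. The 6 odontoblast markers summed to 47194 to 100858 CPM in the controls and 29027 to 62369 CPM in the mutants. By that sum 3 mutants lay below every control. Taken singly, 1 of the 6 odontoblast markers passed in limma before adjustment. A summed CPM follows its most abundant genes, so it does not show that the markers of a list fell together. The 5 endothelial markers summed to 211 to 291 CPM in the controls and 174 to 227 CPM in the mutants, 3 of which lay below every control, and the 5 macrophage markers to 423 to 574 CPM and 246 to 534 CPM, with 2 mutants below every control. The 2 measured of 5 Schwann cell markers summed to 17.3 to 24.4 CPM in the controls and 23.5 to 24.4 CPM in the mutants, and the 2 measured of 5 chondrocyte markers to 173 to 407 CPM and 201 to 367 CPM. The part of these cell types in the *Fbln1* difference was not tested. In bulk pulp, fewer cells of a type and less RNA per cell cannot be told apart.

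*Fbln2* encodes fibulin-2, a ligand of the lectin domains of aggrecan and versican, and lies at 91212455 to 91272540 on the plus strand of chromosome 6. Its level was 7.06, 7.62, 7.13 and 7.39 log2 CPM in controls 49 to 52 and 7.19, 6.84, 7.34 and 7.76 in mutants 53 to 56. The genotypes were interleaved, with both the lowest and the highest value in mutants. The log2 difference was -0.02 (SE 0.20, 95% interval -0.44 to 0.41, limma adjusted p = 0.998, exact permutation p = 0.943), and -0.18 without library 56.

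*Fbln5* encodes fibulin-5, which binds cells through integrins and is needed for elastic fibre assembly, and it lies on the minus strand of chromosome 12 at 101746565 to 101819055. It was at 5.81, 6.29, 5.59 and 5.82 log2 CPM in controls 49 to 52 and at 6.35, 5.74, 5.94 and 5.82 in mutants 53 to 56. Control 50 and mutant 53 were high and the rest lay close together in both genotypes. The log2 difference was 0.09 (SE 0.18, 95% interval -0.31 to 0.48, limma adjusted p = 0.998, exact permutation p = 0.6). Like that of *Fbln2*, the interval stays within 1.5-fold in both directions, and the difference was 0.13 without library 56.

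*Efemp2* encodes fibulin-4, which brings lysyl oxidase to tropoelastin, and lies at 5473954 to 5482517 on the plus strand of chromosome 19. Its level was 8.77, 9.05, 8.79 and 8.97 log2 CPM in controls 49 to 52 and 9.29, 9.24, 8.74 and 8.15 in mutants 53 to 56. The controls were tight, while the mutants spread on both sides of them, with 53 and 54 above every control and 55 and 56 below. The log2 difference was -0.04 (SE 0.23, 95% interval -0.53 to 0.46, limma adjusted p = 0.998, exact permutation p = 0.914) and turned to 0.20 (SE 0.17) without library 56. Exons of *Mus81*, on the other strand, cover 4.57% of the merged exons of *Efemp2*, and the strand setting of the counting is not given in the sources used here, so a small share of the reads may belong to either gene.

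**Figure D2:**
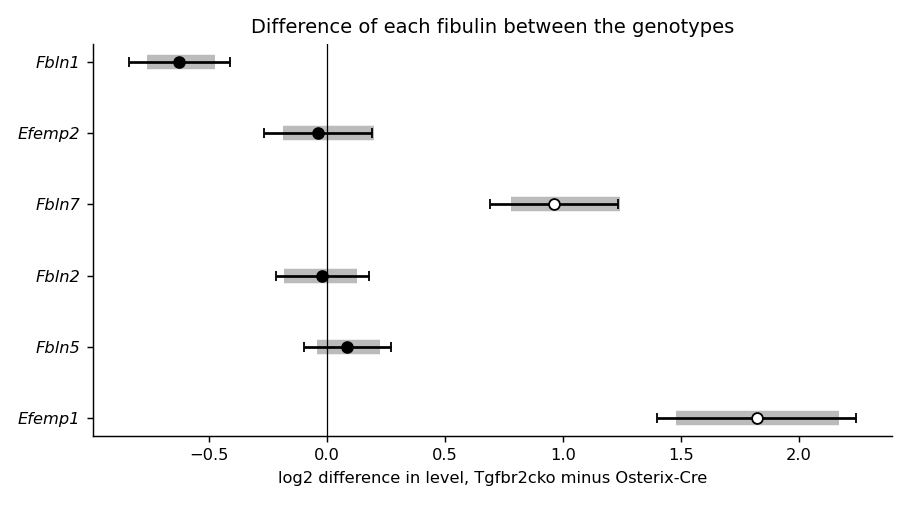
Log2 difference of each fibulin (*Tgfbr2cko* minus Osterix-Cre, n = 4 each) with its standard error from the limma model, over a grey bar that spans the differences obtained with 1 library left out at a time. Filled points are the 4 tested members, of which *Fbln1* at -0.62 is the one whose grey bar stays on a single side of 0, and open points are *Efemp1* at 1.82 and *Fbln7* at 0.96, which were picked for their difference.

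*Fbln7* encodes fibulin-7, the dental cell adhesion protein introduced above, and lies on the plus strand of chromosome 2 at 128862981 to 128897034. Its level was 8.34, 8.36, 8.76 and 8.78 log2 CPM in controls 49 to 52 and 9.36, 9.98, 10.07 and 8.68 in mutants 53 to 56. Mutants 53 to 55 stood above all controls, while mutant 56 lay below controls 51 and 52. Enamel genes took 19.2% of the reads of library 56, which lowers the CPM of every other gene there. The place of mutant 56 among the controls therefore depends on the library total used. Between 3163 and 4501 reads in a control and between 5555 and 12432 in a mutant lay behind these values, so counting error was small beside the spread between libraries. The control mean was 8.56 ± 0.24 and the mutant mean 9.52 ± 0.64, a log2 difference of 0.96 (SE 0.27) or 1.95-fold, and 1.24 without library 56.

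*Efemp1* encodes fibulin-3, which binds the metalloproteinase inhibitor TIMP3 and the matrix protein ECM1, and lies on the plus strand of chromosome 11 at 28853204 to 28926743. It was the scarcest of the 6 measured members, at 1.32, 2.07, 0.96 and 0.69 log2 CPM in controls 49 to 52 and at 3.18, 2.04, 3.001 and 4.10 in mutants 53 to 56. Mutants 53, 55 and 56 stood above all controls, and mutant 54 lay just below control 50. The reads behind these levels were 24, 40, 18 and 16 in controls 49 to 52, and mutants 53 to 56 had 80, 50, 69 and 232. The control mean was 1.26 ± 0.60 and the mutant mean 3.08 ± 0.85, a log2 difference of 1.82 (SE 0.42) or 3.53-fold, and 1.48 without library 56.

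At this depth the level of *Efemp1* in a single library was loosely set. Exact 95% Poisson intervals ran from 2.96 to 5.64 CPM in control 50 and from 3.02 to 5.37 CPM in mutant 54, so that pair could not be told apart. The intervals cover counting error only, since amplified reads without molecular identifiers are not independent molecules. Ranked within a library by log2 CPM among the 12148 genes kept in the table, *Efemp1* was at percentile 1.92 to 6.42 in the controls and 6.26 to 34.8 in the mutants, whereas *Fbln1* was at percentile 98.6 or higher in all 8 libraries.

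Both picked genes were set beside the enamel reads of each library. The mean level of *Amelx*, *Ambn* and *Enam* was 12.1, 9.23, 9.65 and 10.2 log2 CPM in controls 49 to 52 and 9.99, 9.27, 12.6 and 15.3 in mutants 53 to 56. Library 56, with the most enamel reads, had the highest *Efemp1* and the lowest *Fbln7* of the mutants, so the 2 genes sat at opposite ends there. In the controls, library 49 had the most enamel reads and there *Efemp1* was second highest and *Fbln7* lowest of the controls. Mutant 55, second to 56 in enamel level, had the highest *Fbln7* of all 8 libraries and the third highest *Efemp1* of the mutants. Its Poisson interval for *Efemp1*, 6.18 to 10.06 CPM, overlapped the 7.15 to 11.2 CPM of mutant 53, the second highest. Mutant 54, lowest of the mutants in enamel level, had their lowest *Efemp1* and second highest *Fbln7*. With the enamel level as a covariate in the model, the log2 difference was 1.52 for *Efemp1* and 1.17 for *Fbln7*, and with the enamel reads taken out of the library totals it was 1.90 and 1.04. The 6 dental epithelium markers summed to 328 to 519 CPM in the controls, 361 to 549 CPM in mutants 53 and 54, 1354 CPM in mutant 55 and 4305 CPM in mutant 56. The part of epithelial cells in the *Efemp1* and *Fbln7* values was not tested.

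**Figure D3:**
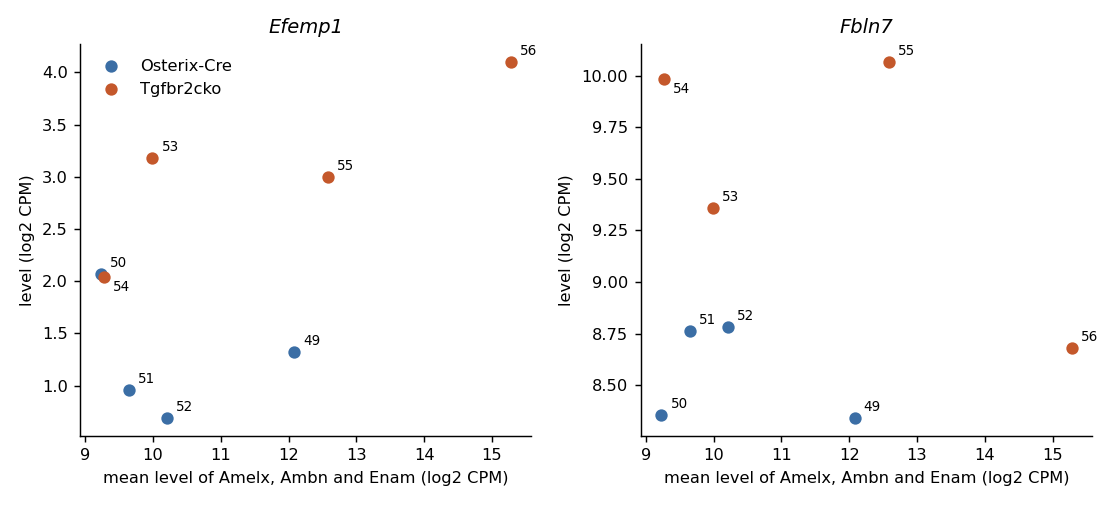
Level of *Efemp1* (left) and *Fbln7* (right) in each library against the mean enamel level (*Ambn*, *Amelx* and *Enam*) of the same library, all in log2 CPM, with libraries numbered. Mutant 56 lies alone at an enamel level of 15.3, with the highest *Efemp1* (4.10) and the lowest *Fbln7* of the mutants (8.68), and among the remaining libraries mutants lie above controls of like enamel level except for *Efemp1* in mutant 54.

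The make-up of the fibulin pool differed in both of its leading members. As a share of the CPM per kilobase summed over the 6 fibulins, *Fbln1* made up 45.9%, 52.2%, 46.0% and 35.97% in controls 49 to 52 and 27.5%, 24.3%, 26.0% and 30.5% in mutants 53 to 56. *Fbln7* made up 22.1%, 17.0%, 25.8% and 28.8% of the control pools, and of the mutant pools it made up 36.1%, 47.4%, 50.9% and 34.9%. *Fbln1* was thus the leading fibulin per kilobase in 4 of 4 controls and *Fbln7* in 4 of 4 mutants, library 56 included. The log2 ratio of *Fbln7* to *Fbln1* reads, which needs no library total, was -1.49, -2.06, -1.27 and -0.76 for controls 49 to 52, and mutants 53 to 56 had -0.042, 0.53, 0.53 and -0.24. Because *Fbln7* was picked for its rise, these shares and ratios are a description.

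The size of the pool as a whole overlapped between the genotypes. All 6 fibulins summed to 2096 ± 289 CPM in the controls, from 1864 to 2499, and to 2158 ± 478 CPM in the mutants, from 1470 in library 56 to 2493 in library 54. The 19.2% of enamel reads in library 56 lower its sum. *Efemp2* kept 22.4% to 27.8% of the per-kilobase pool in the controls and 17.2% to 29.4% in the mutants. *Fbln2* ranged from 2.71% in mutant 54 to 9.38% in mutant 56, a wider spread than the 4.23% to 5.55% of the controls.

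**Figure D4:**
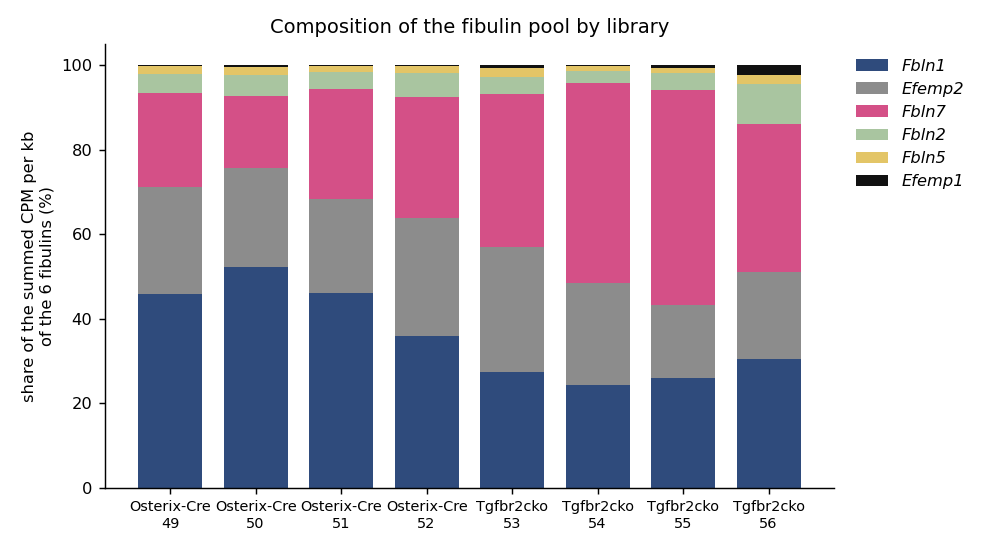
Share of each fibulin in the CPM per kilobase summed over the 6 measured fibulins, in percent, as 1 stacked bar for each library. The *Fbln1* segment is 35.97% to 52.2% of the control bars and 24.3% to 30.5% of the mutant bars, and the *Fbln7* segment is 17.0% to 28.8% and 34.9% to 50.9%.

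Ratios to *Fbln1* were also compared for the 3 other tested members, as 3 comparisons that share the *Fbln1* values. The log2 ratio of *Fbln5* to *Fbln1* was -4.02, -4.12, -4.44 and -3.72 in controls 49 to 52 and -3.05, -3.71, -3.60 and -3.10 in mutants 53 to 56. All mutants were above all controls, narrowly for mutant 54, and the means differed by 0.71 on the log2 scale (exact permutation p = 0.0286, 0.0857 adjusted over the 3 ratios). The ratios of *Fbln2* and *Efemp2* to *Fbln1* differed by 0.61 (exact permutation p = 0.114) and 0.59 (exact permutation p = 0.0857), with overlap of the genotypes. None of the 3 ratios passed after adjustment. The levels of the 3 members themselves differed by only -0.02, 0.09 and -0.04 (*Fbln2*, *Fbln5*, *Efemp2*). The ratio differences therefore largely restate that of *Fbln1* with its sign turned, and add no separate evidence.

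Sequences just before the start sites are shown for the 3 members with the largest differences, to show what lies upstream of genes that moved in opposite directions. Each is the 250 bases upstream of a RefSeq start, the first of those listed for *Fbln1* (GRCm38.p6, plus strand, 5′ to 3′), at chr11:28852955-28853204 for *Efemp1*, chr2:128863682-128863931 for *Fbln7* and chr15:85205699-85205948 for *Fbln1*. The *Fbln7* window lies in an intron of a longer GENCODE transcript of the gene. Capitals mark CAGAC, the letters of a SMAD-binding box, and GGGCGG, a GC box, each on either strand.
Efemp1: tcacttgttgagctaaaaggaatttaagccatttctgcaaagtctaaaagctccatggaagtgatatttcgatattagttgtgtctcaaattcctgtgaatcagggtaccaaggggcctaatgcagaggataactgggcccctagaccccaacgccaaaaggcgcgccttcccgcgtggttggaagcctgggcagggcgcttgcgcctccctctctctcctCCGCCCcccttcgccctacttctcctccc
Fbln7: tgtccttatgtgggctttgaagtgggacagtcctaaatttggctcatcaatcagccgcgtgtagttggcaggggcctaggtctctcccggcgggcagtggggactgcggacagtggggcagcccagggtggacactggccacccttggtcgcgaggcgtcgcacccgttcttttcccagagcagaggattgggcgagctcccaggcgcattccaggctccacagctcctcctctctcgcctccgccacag
Fbln1: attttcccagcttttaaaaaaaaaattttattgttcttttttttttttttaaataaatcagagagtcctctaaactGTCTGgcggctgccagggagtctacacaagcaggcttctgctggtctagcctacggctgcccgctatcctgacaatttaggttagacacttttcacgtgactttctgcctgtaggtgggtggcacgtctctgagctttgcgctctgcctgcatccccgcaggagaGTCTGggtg
Counted back from the start, the *Fbln1* window held CAGAC letters beginning at -174 and -9, and the overlapping window of a second RefSeq start of *Fbln1*, further into the gene, held them at -233 and -68 with a GC box at -11. The windows of *Efemp1* and *Fbln7* held no CAGAC letters. *Efemp1* had a GC box at -29 and the AP-1 letters TGANTCA at -154, and *Fbln7* had neither. Of 32851 RefSeq windows of the same length, 42.2% held CAGAC, 32.7% GGGCGG and 6.75% TGANTCA on either strand. GC content was 53.6% for *Efemp1*, 63.2% for *Fbln7* and 46.4% for *Fbln1*, with a median of 52.4% over all windows. Among the other windows, CAGAC was found upstream of *Efemp2* (-170 and -54 from its first RefSeq start) and of the second start of *Fbln5* (-199 and -15), genes whose levels did not pass the test. These matches describe letters only, not bound sites.

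Genes of the matrix that fibulins help to build were taken from lists of known partners. Of 16 elastic fibre and microfibril genes, all were measured, 0 were altered higher and 3 were altered lower, by the same rule that called 3.65% of all genes lower. The 3 were *Lox*, *Loxl3* and *Emilin2*. *Lox*, the lysyl oxidase that fibulin-4 brings to tropoelastin, fell from 8.52 ± 0.53 to 7.39 ± 0.35 log2 CPM (difference -1.13, SE 0.25, limma p = 0.000531, adjusted p = 0.0546, exact permutation p = 0.0286), with all mutants below all controls. *Loxl3*, another oxidase of the family, fell from 7.38 ± 0.18 to 6.51 ± 0.46 (difference -0.87, SE 0.21, limma p = 0.00104, adjusted p = 0.0756, exact permutation p = 0.0286), also without overlap. *Emilin2*, a glycoprotein of elastic fibres, fell from 8.85 ± 0.44 to 7.94 ± 0.53 (difference -0.91, SE 0.27, limma p = 0.00472, adjusted p = 0.181, exact permutation p = 0.0571), with overlap.

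The other 13 elastic fibre genes were not altered. Elastin itself (*Eln*) differed by 0.06 (SE 0.24, exact permutation p = 0.857), and the fibrillins *Fbn1* and *Fbn2* differed by -0.12 (SE 0.16) and 0.05 (SE 0.18). The median log2 difference of the list was -0.01, beside -0.00535 over all genes, and 0 of the 16 passed an adjusted p under 0.05, beside 0.947% of all genes, and 4 had an unadjusted p under 0.05, beside 8.38% of all genes. The count of 3 was the same without library 56 and with the enamel level as a covariate.

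Of 14 measured basement membrane and proteoglycan genes (16 listed, *Acan* and *Ncan* not in the table), 1 was altered, lower, a share of 7.14% that is close to the 5.77% of all genes altered. It was *Bcan*, the proteoglycan brevican, at 5.60 ± 0.38 log2 CPM in the controls and 3.99 ± 0.47 in the mutants (difference -1.61, SE 0.25, limma p = 2.17e-05, adjusted p = 0.00715, exact permutation p = 0.0286), and it was the 1 gene of the lists that passed after adjustment. *Hspg2*, which encodes the basement membrane proteoglycan perlecan, differed by -0.54 (SE 0.18, limma p = 0.00895, adjusted p = 0.251, exact permutation p = 0.0571) and stayed just under 1.5-fold. *Fn1*, *Nid1* and *Vcan*, which encode the fibulin ligands fibronectin, nidogen-1 and versican, differed by -0.24 (SE 0.19), -0.10 (SE 0.17) and 0.36 (SE 0.22). The list's median log2 difference was -0.02, and 1 gene was altered without library 56. The count was 2 with the enamel covariate, with title numbers averaged and without control 50 or mutant 55, and 3 without mutant 53.

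Among 12 measured receptors, proteases and inhibitors that bind or cut fibulins (13 listed, *Egfr* not in the table), 0 were altered, beside 5.77% of all genes, and 3 had an unadjusted p under 0.05, beside 8.38% of all genes. Without library 56, 1 was altered, as also without control 52 or mutant 55 and in 7 of 9 alternatives. *Ecm1*, the fibulin-3 partner, was at 5.30 log2 CPM in the controls and 5.82 in the mutants (difference 0.51, SE 0.17, limma p = 0.0107, adjusted p = 0.275, exact permutation p = 0.0857). *Timp3*, the inhibitor that fibulin-3 binds, differed by -0.41 (SE 0.17, limma p = 0.0331, adjusted p = 0.494, exact permutation p = 0.0857). *Itgav*, the integrin alpha V chain, differed by 0.35 (SE 0.14, limma p = 0.0277, adjusted p = 0.451, exact permutation p = 0.0286), with all mutants above all controls. The median of the list was 0.11.

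Of 11 measured genes widely used as a read-out of TGF-beta signalling, 2 were altered, both lower, beside 3.65% of all genes altered lower, and 0 passed after adjustment. Without library 56, 3 were altered, without mutant 54 only 1 was, and the 9 alternatives gave 2 to 3. *Tgfb1*, the ligand TGF-beta 1, fell from 5.08 ± 0.23 to 4.37 ± 0.38 log2 CPM (difference -0.72, SE 0.21, limma p = 0.00466, adjusted p = 0.179, exact permutation p = 0.0286). *Skil*, a feedback repressor of SMAD proteins, fell from 5.85 ± 0.20 to 5.13 ± 0.54 (difference -0.71, SE 0.23, limma p = 0.00919, adjusted p = 0.253, exact permutation p = 0.0286). Both lay lower in every mutant than in every control in log2 CPM, but for *Skil* mutant 55 and control 50 were both at 5.62. *Fbln1* had the same order, set as narrowly between mutant 55 and control 52. Of the 11 genes, 9 had a lower mean in the mutants, as did 6215 of all 12148 genes, the median log2 difference was -0.29, beside -0.00535 over all genes, and *Fn1* and *Ltbp2* also stand in the lists above.

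**Figure D5:**
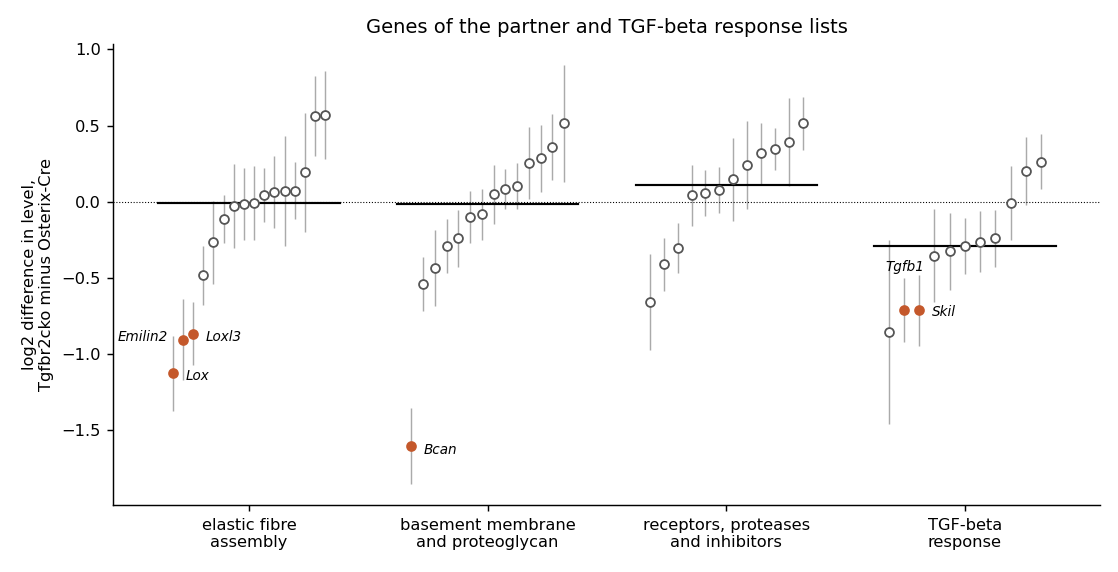
Log2 difference (*Tgfbr2cko* minus Osterix-Cre, n = 4 each) of every measured gene in the 4 lists, ordered by value within a list, with its standard error; filled points with names were altered by the rule of the study and the bars mark list medians. The 6 altered genes all lie below 0, from -0.71 for *Skil* to -1.61 for *Bcan*, and no gene above 0 was altered.

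The genes whose levels followed *Efemp1* or *Fbln7* most closely within the genotypes were sought among the 10313 genes with a mean of at least 3 log2 CPM. The measure was Pearson's r over the 8 libraries after subtracting each genotype's mean, and since the best of many genes were kept, r is a description. For *Efemp1* they were *Plekhh3* (r = 0.964), *Slc45a4* (r = 0.964) and *Mark2* (r = 0.954). For *Fbln7* they were *Phactr3* (r = 0.984), *Ice2* (r = 0.983) and *Sall1* (r = 0.979). Without library 56 the 6 values were 0.935 or higher. The libraries share their totals and their enamel content across all of these genes.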

How the data were processed

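Dental pulp RNA (RIN above 7) of 4 Osterix-Cre and 4 *Tgfbr2cko* samples was preamplified from a low input and made into Nextera XT libraries. Per the submitters' processing notes and the methods, reads were trimmed with fastp 0.21.0, aligned with HISAT2 2.1.0 to GRCm38.p5 (the methods write GRCh38) and counted with featureCounts of Subread 2.0.1 on GENCODE M14, and genes were kept by the CLEAR workflow. The deposited values are log2 CPM that the authors made with voom, for 12148 genes. All 97184 values turned back into whole reads (tolerance 0.001 read), so the depth of each value is known, at 8682872 to 13539670 reads per library. No library pair agreed within sampling noise (smallest chi-square per degree of freedom 19.1). Identifiers were matched to GENCODE M21 without version, 12144 of 12148 with a symbol.

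The genotypes were compared on the deposited log2 values in R 4.3.3 with limma 3.58.1 (2-sided, intensity trend, all 8 libraries, no covariate). A gene was called altered at p under 0.05 and at least 1.5-fold, and p was adjusted over all genes. Single values were compared by exact permutation. The members and lists were chosen with earlier results of these data known. Named genes are the members, *Tgfbr2*, every altered gene of the 4 lists, the 3 genes most like *Efemp1* and *Fbln7*, and marker genes; *Eln*, *Fbn1*, *Fbn2*, *Fn1*, *Nid1*, *Vcan*, *Hspg2*, *Ecm1*, *Timp3*, *Itgav*, *Itgb3*, *Ltbp2* and *Mus81* were added after their values were seen. Upstream windows came from RefSeq, with entries for all 7 members. Alternatives were no intensity trend, limma library weights, voom weights on recovered reads, quantile normalization, median centring, a mean of at least 3 log2 CPM, averaging libraries of 1 genotype and title number, the enamel level as a covariate, other thresholds and leaving out each library. Library totals without enamel reads were added after the data were seen. Figures were drawn with matplotlib 3.10.9.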

Additional observations from a re-analysis of the deposited data

How the results depend on the processing

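The lower *Fbln1* kept its direction and an unadjusted limma p under 0.05 in 9 of 9 alternatives (log2 difference -0.66 to -0.49, p 0.00265 to 0.0275) and in 8 of 8 fits without 1 library (-0.76 to -0.47, p 0.00454 to 0.0463), though under 1.5-fold in 4 of those 9 and without control 50 or mutant 56. *Efemp1* (1.48 to 2.17) and *Fbln7* (0.78 to 1.24) stayed higher without any 1 library, and *Efemp1* could not be given under the filter on a mean of 3 log2 CPM, which removes it. The small differences of the other members turned sign: *Fbln2* to 0.013 with quantile normalization and 0.058 with totals free of enamel reads (-0.18 to 0.13 without 1 library), *Efemp2* to 0.080 with library weights, 0.22 with the enamel covariate and 0.039 with totals free of enamel reads (-0.18 to 0.20 without 1 library), and *Fbln5* ranged from -0.042 to 0.22 without 1 library. *Tgfbr2* passed p under 0.05 with library weights (-0.42) and ranged from -0.42 to -0.22 without 1 library, also passing without control 49 (p = 0.0411) or mutant 56 (p = 0.0136) in limma, while its exact permutation p over all libraries was 0.143. The 701 altered genes became 256 where 2-fold was required and 115 where the adjusted p had to be under 0.05, and ran from 625 to 947 without 1 library. Of the altered genes 36.8% were higher in the mutant (258 against 443 lower), 49.3% (343 against 353) with totals free of enamel reads and 47.0% without mutant 56. Altered genes of the elastic fibre list ran from 3 to 4 without 1 library. The basement membrane list had 2 with title numbers averaged or the enamel covariate, and 1 to 3 without 1 library (2 without control 50 or mutant 55, 3 without mutant 53). The receptor list had 1 (*Ecm1* or *Itgb3*) with library weights, voom weights, quantile normalization, median centring, averaged title numbers, the enamel covariate or totals free of enamel reads, and 0 to 1 without 1 library (1 without control 52, mutant 55 or mutant 56). The TGF-beta list ran from 1 (without mutant 54) to 3. The cause of these changes was not tested. No paired analysis was possible because the library numbers differ between the genotypes, and the further number in the titles is shared by a control and by 2 mutants and repeats within a genotype. With 16 to 40 reads in the controls, depth limits *Efemp1* most.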
